A study of Mus musculus with 4 samples.

Results

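Intraflagellar transport (IFT), BBSome, and transition zone genes were examined in cells sorted from the mouse main olfactory epithelium (MOE). The 44 genes are a fixed list drawn up as parts that both the sensory cilia of olfactory sensory neurons (OSNs) and motile cilia need. Whether each gene is needed was not tested here. All 44 are among the 24421 genes with deposited values. The list was set by known function, with earlier results of these libraries in view. RNA-seq was available for 4 libraries, 1 for each group, so differences below lack a replicate check and carry no p-values. Cells with and without GFP were sorted from TAAR enhancer 1-GFP transgenic mice, and cells with and without tdTomato from TAAR enhancer 2-tdTomato transgenic mice, with animals pooled by genotype. In each line a PiggyBac transgene carries a TAAR enhancer ahead of the mouse Hsp68 minimal promoter and the reporter, and each line descends from 1 kept founder. The labels give the strain as C57BL/6 and the age as adult for all groups, while the paper's reporting summary gives a mixed C57BL/6J and 129 background and younger, postnatal ages. The comparison asks how ciliary transport genes differ between cells in which a TAAR enhancer drives the reporter and the other sorted cells of the same tissue.

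Cilia are built and kept up by IFT trains that move along the axoneme. In the textbook view, the IFT-B complex serves outward transport with kinesin-2 motors, and the IFT-A complex serves return transport and entry of membrane proteins. The BBSome is a coat-like complex that rides on IFT trains and moves membrane receptors out of or along the cilium, and the transition zone is the gate at the ciliary base. An OSN carries a tuft of long, immotile cilia in which odor transduction takes place, and loss of BBSome genes is known to impair smell. Multiciliated cells of the respiratory lining use the same machinery for motile cilia.

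The genes are spread over 16 chromosomes in the GENCODE M21 annotation of GRCm38 (mm10), with at most 7 on 1 chromosome. They span from 3049 bases (*Bbs10*, with 1 exon) to 412566 bases (*Bbs9*). Exons of 12 of the 44 genes overlap exons of another gene, on the other strand for 11 of them. The sources used here do not say whether counting used strand, so values of these 12, among them *Bbs4*, *Bbs12*, *Mkks*, *Arl6*, *Kif3c*, *Kif17*, and *Ift88*, may hold reads of the neighbor.

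A DNA feature that many of these genes are known to share is the X-box, the site bound by RFX transcription factors, which drive ciliary genes. RefSeq promoters (GRCm38.p6, from 250 bases before to 50 bases after a start site, 300 bases in all) were matched by symbol for 40 of the 44 genes, and searched on both strands. The full X-box was written as GTTNCC and GGNAAC with 2 bases of any kind between them, where N is any base, and the half-site as GTTGCC, which many full sites contain. A full X-box was found for 4 of the 40 genes (10%), compared with 0.529% of all 27025 genes with a promoter in the table. The half-site was found for 19 of the 40 genes (47.5%), compared with 14.1% of all genes. A forkhead site, TGTTTAC, as bound by proteins of the FOXJ1 kind, was found in none of the 40, compared with 4.05% of all genes. These matches describe the letters in the windows and do not show that a factor binds there.

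The 4 full X-boxes are shown because they are the closest matches to the shared element. Each is printed 5′ to 3′ on the strand of the gene, with the X-box in capitals. They belong to *Ttc26* (chr6:38381483-38381512, plus strand), *Mks1* (chr11:87853183-87853212, plus strand), *Bbs7* (chr3:36613489-36613518, minus strand), and *Tctn1* (chr5:122264411-122264432, minus strand). The centers lie 26, 17, and 114 bases before the start site for *Ttc26*, *Mks1*, and *Bbs7*, and 43 bases after it for *Tctn1*.
Ttc26: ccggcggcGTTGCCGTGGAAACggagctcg
Mks1: gcgtctccGTTGCCAGGGGAACgaggcacc
Bbs7: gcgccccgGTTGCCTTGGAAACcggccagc
Tctn1: ctgtgactGTTGCCCGGGCAAC

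Half-sites are shown for genes at or near an end of the fold change range of a line, described below, with GTTGCC, or its reverse complement GGCAAC, in capitals. They are those of *Ift57* (chr16:49699195-49699224, plus strand), *Traf3ip1* (chr1:91494577-91494606, plus strand), *Ift88* (chr14:57424080-57424109, plus strand), *Bbs1* (chr19:4906609-4906638, minus strand), and *Kif3c* (chr12:3364944-3364973, plus strand). *Ift57* has a further half-site at chr16:49699222-49699251, which is not printed.
Ift57: gaggcgggtctgGTTGCCgtggtgaccggc
Traf3ip1: gggcgcgcgtccGTTGCCaaggccgcgcgg
Ift88: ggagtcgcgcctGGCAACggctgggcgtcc
Bbs1: atggctgagctgGTTGCCaaggcgacgcct
Kif3c: ccgagaatggcgGTTGCCgagagaacacgc

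Expression is given as TPM (transcripts per 1000000), which divides by gene length and scales each library to the same total, so levels of different genes can be compared within a library. Read numbers behind the values are not known. All 44 genes were above 1 TPM in each library, and between 39 (GFP-positive) and 42 (GFP-negative and tdTomato-positive) were at or above 10 TPM. Their median level was 91.1 TPM without and 35.6 TPM with GFP, and 84.8 TPM without and 97.8 TPM with tdTomato. In rank, the median gene of the list stood at percentile 84.7, 75, 82.3, and 84.4, in that order, among the genes with at least 1 TPM in that library. Summed over the 44 genes, the GFP line had 3910 TPM without and 1929 TPM with the reporter. The tdTomato line had 3791 TPM without and 5278 TPM with the reporter, the latter being 0.528% of that library. The tdTomato-positive total is thus the highest and the GFP-positive total the lowest, while the reporter-negative libraries lie close together. In each library the highest gene was *Ift43*, a small IFT-A subunit. The lowest was *Bbs10*, a chaperonin-like protein of BBSome assembly, except in tdTomato-positive cells, where it was *Bbs12*.

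**Figure D1:**
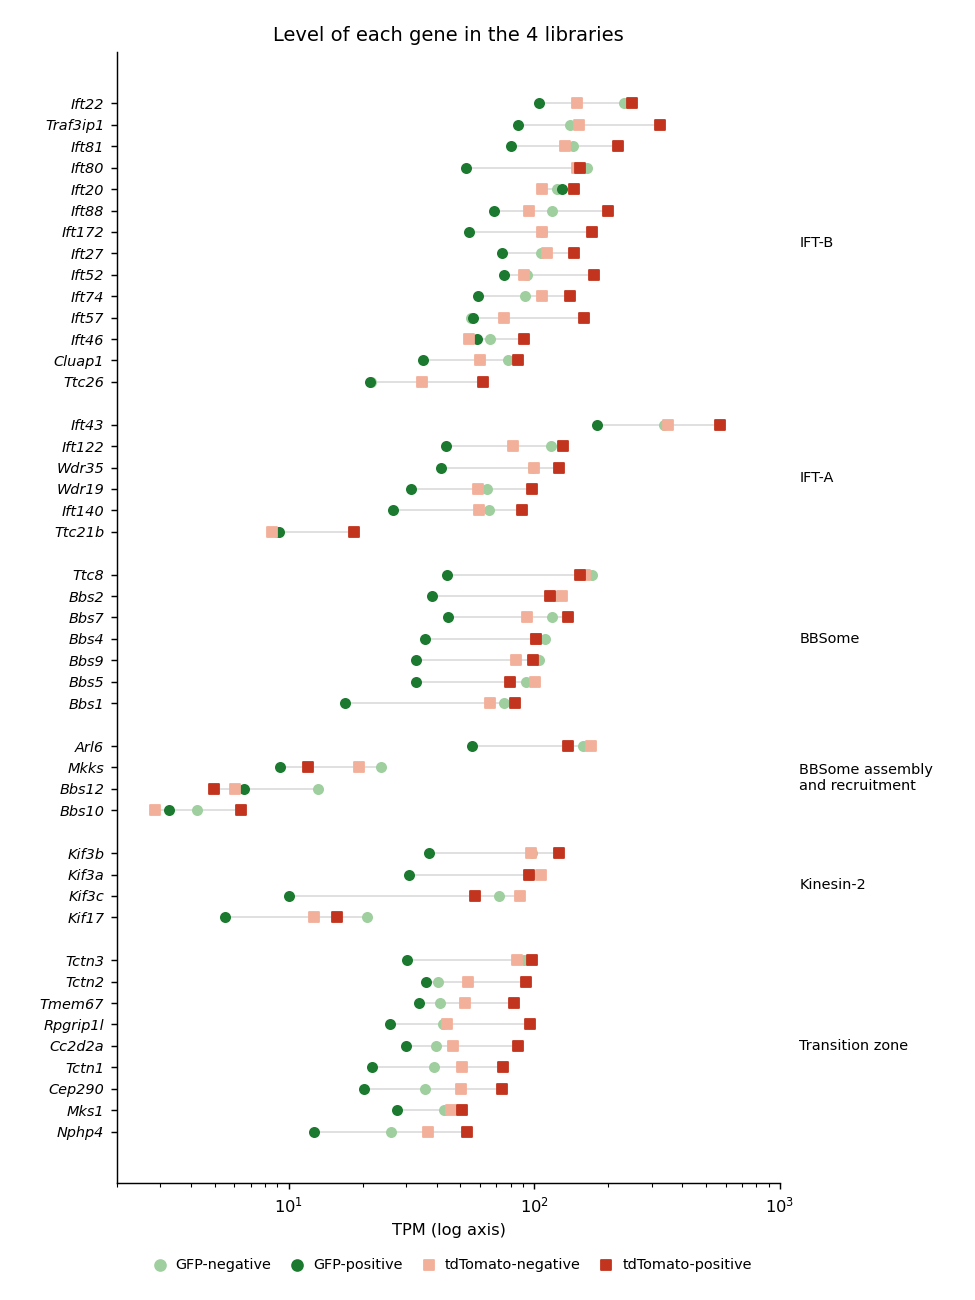
TPM of each of the 44 genes (rows, log axis) in the 4 libraries (1 point each), grouped by complex and ordered by mean level. For most genes the GFP-positive point is farthest to the left, and for most IFT and transition zone genes the tdTomato-positive point is farthest to the right, as for *Ift43*, with 179.8 and 568.5 TPM.

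The reporter-negative libraries gave a view of how far values differ when the sort is of the same kind. The log2 ratio of TPM + 1 in tdTomato-negative over GFP-negative cells had a median of -0.02 over the 44 genes, from -1.02 (*Bbs12*) to 0.67 (*Ttc26*). In this comparison, 40 of the 44 genes differed by less than 1.5-fold, compared with 60.4% of all genes. All genes have a lower median level than the list, and genes of like level were not compared. These libraries come from different lines and are not replicates. Across the 44 genes, which are not independent, Pearson's r of log2(TPM + 1) was 0.96 between them.

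In the TAAR enhancer 1-GFP line, 41 of the 44 genes were lower with GFP than without it, compared with 75.5% of all genes, and 3 were higher, compared with 24.5%. The log2 fold changes, on the TPM + 1 scale, had a median of -0.98. The median of all 16173 genes with at least 1 TPM in either library was -0.88, so the list as a whole sat near the typical gene of that library pair. At least 2-fold lower values were found for 21 of the 44 genes (47.7%), compared with 45% of all genes, a share near the background. None of the 44 was at least 2-fold higher, compared with 14.2% of all genes. At a limit of 1.5-fold, chosen after the data were seen, 33 of the 44 (75%) were lower, compared with 60.7% of all genes. With TAAR enhancer 2-tdTomato, 36 of the 44 genes were higher with tdTomato than without it, compared with 40% of all genes, and 8 were lower, compared with 60%. The median log2 fold change was 0.53, against -0.23 for all 15777 genes. At least 2-fold higher values were found for 5 of the 44 (11.4%), compared with 17.2% of all genes. At least 2-fold lower values were found for none of the 44, compared with 23.2% of all genes. At the same 1.5-fold limit, 18 of the 44 (40.9%) were higher and 2 lower, compared with 23.6% and 35.9% of all genes. The list was also tighter than all genes, with an interquartile range of log2 fold changes of 0.88 in the GFP line and 0.55 in the tdTomato line, where all genes had 1.54 and 1.42. The list also has a higher median level than all genes, and genes of like level were not compared. In sorted populations, fewer cells of a type and less RNA per cell cannot be told apart.

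Some of these directions depend on how the libraries are scaled. The 10 highest genes held 31.5% of the GFP-positive library and between 5.72% and 9.44% of the others. Rescaled without the 24 highest genes, the median of the 44 genes was -0.49 in the GFP line, where all genes had -0.43. When each library was scaled by its median ratio over 11943 genes, all log2 fold changes shifted up by 0.88 in the GFP line and 0.16 in the tdTomato line. The median of the 44 genes was then -0.12 in the GFP line, where all genes had -0.07, and 3 of the 44 were at least 2-fold lower, compared with 21.7% of all genes. When the libraries were set to equal levels of 12 mature OSN marker genes, shifts of 3.08 and 1.02 gave medians of 1.98 and 1.52, where all genes had 2.0 and 0.71. A scaling shifts the list and all other genes of a line together. The directions below are on the TPM scale unless another is named.

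**Figure D2:**
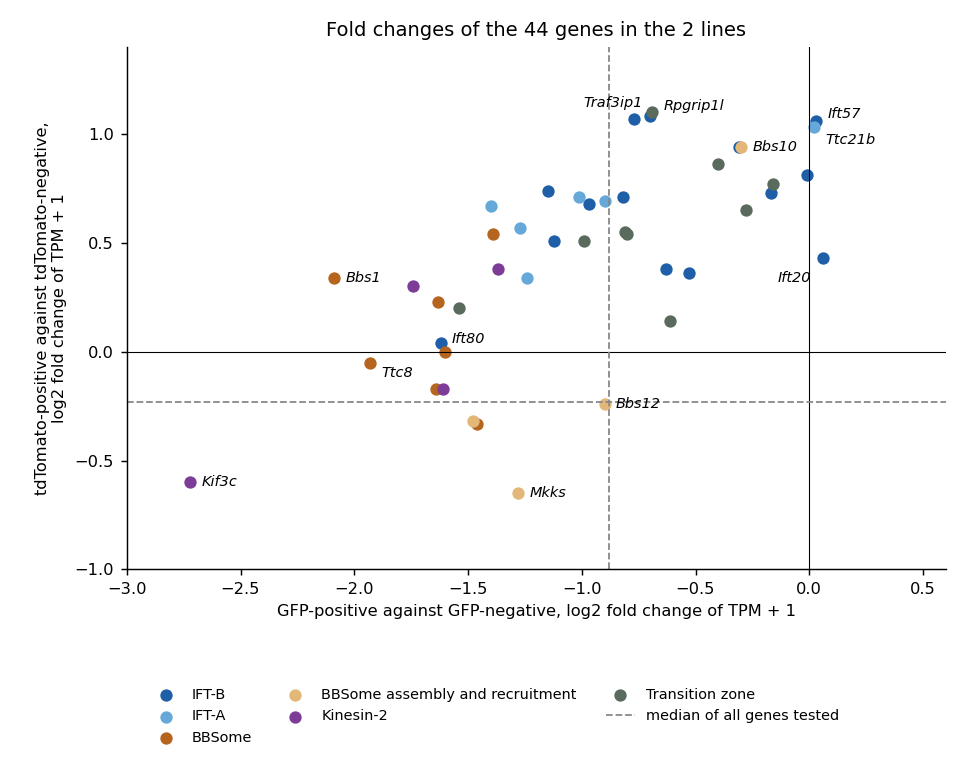
Log2 fold change on the TPM + 1 scale in the GFP line (horizontal) and the tdTomato line (vertical) for the 44 genes, 1 point each, colored by complex, with dashed lines at the medians of all genes tested (-0.88 and -0.23). BBSome and kinesin-2 genes lie to the left of the vertical line and mostly above the horizontal one, most IFT-B and transition zone genes lie farther right and higher, and *Kif3c* is at -2.72 and -0.60; another scaling of the libraries would shift all points together, also across 0.

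The complexes did not move as 1 block. The order of the group medians was similar in the lines, with IFT-B and transition zone genes above BBSome and kinesin-2 genes in both. Over the 44 genes, Spearman's rho between the fold changes of the lines was 0.70 and Pearson's r was 0.68. This describes genes that share cell sources and is given without a p-value, although the lines share no library.

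IFT-B genes encode the larger train complex. In the GFP line, 12 of the 14 genes were lower in GFP-positive cells, compared with 75.5% of all genes. The median log2 fold change was -0.66, which became 0.21 with the median-ratio scaling and 2.39 with the mature OSN scaling. In the tdTomato line, all 14 were above 0, compared with 40% of all genes, and the median was 0.72 (0.87 with the median-ratio scaling), from 0.04 for *Ift80* to 1.08 for *Traf3ip1*.

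Values of single genes are given below in the order GFP-negative, GFP-positive, tdTomato-negative, and tdTomato-positive. *Ift88*, a core subunit whose loss abolishes cilia, was 118, 68.5, 94.7, and 200.3 TPM. Its log2 fold changes were -0.77 and 1.07. The tdTomato-positive value is the highest and the GFP-positive value the lowest, and the reporter-negative values lie between them. *Traf3ip1* (IFT54), which binds microtubules and IFT20, had the same order, with 139.7, 85.9, 152.6, and 323 TPM in these 4 libraries. *Ift22*, a small GTPase-like subunit, was 232, 104, 149, and 249 TPM, with log2 fold changes of -1.15 and 0.74. *Ift81*, which forms the tubulin-binding module with *Ift74*, was 143, 80.6, 133, and 218 TPM. *Ift74* itself was 91.7, 58.9, 107, and 139.6 TPM. *Ift172*, the largest IFT-B subunit, was 107, 54.25, 107, and 172 TPM, with log2 fold changes of -0.97 and 0.68. For each of these genes the GFP-positive library is the lowest of the 4 and the tdTomato-positive library the highest.

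Some IFT-B genes were not lower in GFP-positive cells beyond a small amount. *Ift20*, the subunit that also sits at the Golgi and serves traffic toward the cilium, was 124, 129, 107, and 145 TPM, and its log2 fold changes of 0.06 and 0.43 include the highest of the GFP line. *Ift57* was 55.2, 56.2, 75.5, and 159 TPM, and *Ttc26* (IFT56) was 21.7, 21.4, 35, and 62 TPM. *Ift57* and *Ttc26* therefore had nearly equal levels in both sorts of the GFP line, with log2 fold changes of 0.03 and -0.01, and were higher in tdTomato-positive cells by 1.06 and 0.81. Against the reporter-negative library of the other line, *Ttc26* had -0.68 in the GFP line and 1.47 in the tdTomato line. *Ift46* and *Ift52*, further core subunits, had log2 fold changes of -0.17 and -0.31 in the GFP line and 0.73 and 0.94 in the tdTomato line. *Ift27*, a small GTPase that links IFT-B to BBSome exit, was 106.5, 73.6, 112.6, and 145 TPM. At the other end, *Ift80*, a linker subunit, was 163, 52.6, 149, and 153.5 TPM, and *Cluap1* (IFT38) was 77.8, 35.3, 59.9, and 85.4 TPM. *Ift80* was thus the lowest IFT-B gene in both lines, at -1.62 and 0.04. In a split by subcomplex chosen after the values were seen, the 8 genes of the core (IFT-B1) had a median of -0.58 with GFP and 0.74 with tdTomato. The 6 genes of the peripheral part (IFT-B2) had medians of -0.83 and 0.59, and the ranges of the subcomplexes overlap in both lines.

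IFT-A genes had median log2 fold changes of -1.12 in the GFP line (-0.25 with the median-ratio scaling and 1.91 with the mature OSN scaling) and 0.68 in the tdTomato line. In the GFP line, 5 of the 6 were lower in GFP-positive cells, compared with 75.5% of all genes, and 4 of the 6 at least 2-fold, compared with 45%. All 6 were higher in tdTomato-positive cells, compared with 40% of all genes. *Ift43* was 337, 179.8, 351.5, and 568.5 TPM in the same order. *Ift122*, a core subunit needed for delivery of ciliary G protein-coupled receptors, was 117, 43.7, 81.9, and 131 TPM, and had the lowest IFT-A value of the GFP line at -1.4. *Ift140*, also of the core, was 65.6, 26.5, 59.6, and 88.7 TPM. These 3 genes share the order of low GFP-positive, intermediate negative, and high tdTomato-positive values. *Wdr19* (IFT144) was 64.45, 31.6, 59.1, and 97.6 TPM, and *Wdr35* (IFT121) was 99.1, 41.5, 99.4, and 125.7 TPM. *Ttc21b* (IFT139), a peripheral subunit, was the exception in the GFP line and the lowest in level, with 8.97, 9.09, 8.55, and 18.45 TPM. Its log2 fold changes of 0.02 and 1.03 were the highest of the IFT-A genes in both lines.

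BBSome genes had a lower median than IFT-B and IFT-A genes in both lines, though single genes overlapped, with *Ift80* below *Bbs7* in each. All 7 were at least 2-fold lower in GFP-positive cells, compared with 45% of all genes, with a median log2 fold change of -1.63 (-0.76 with the median-ratio scaling, 1.4 with the mature OSN scaling). In the tdTomato line the median was near 0 (0.00), 4 of the 7 were above 0 and 3 below, compared with 40% and 60% of all genes. None was at least 1.5-fold higher or lower, compared with 23.6% and 35.9% of all genes. *Ttc8* (BBS8), needed for OSN cilia in the mouse, was 171, 44.2, 160.1, and 154.1 TPM. *Bbs1*, the subunit that binds the GTPase ARL6, was 75.4, 16.9, 65.8, and 83.6 TPM, and had the lowest BBSome value of the GFP line at -2.09. *Bbs2*, *Bbs7*, and *Bbs9* form the platform-like core of the complex. *Bbs2* was 122, 38.4, 129.8, and 115 TPM, *Bbs7* was 118, 44.4, 93.7, and 136.5 TPM, and *Bbs9* was 104, 33, 84.3, and 99 TPM. *Bbs4*, a subunit rich in tetratricopeptide repeats, was 110.9, 35.8, 101.8, and 102 TPM, and *Bbs5*, which binds phosphoinositides, was 92.8, 33.1, 100.3, and 79.8 TPM. For all 7 genes, the GFP-positive value is at least 2-fold below each other value, whereas the other 3 libraries lie within 1.5-fold of each other.

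The 4 genes of BBSome assembly and recruitment had medians of -1.09 in the GFP line (-0.28 with the median-ratio scaling and 1.78 with the mature OSN scaling) and -0.28 in the tdTomato line (0.64 with the mature OSN scaling). The GFP median was -0.44 against the negative library of the other line. *Bbs10*, the single gene of this group without exon overlap, had -0.30 and 0.94. *Arl6* (BBS3), the GTPase that recruits the BBSome to membranes, was 158, 55.9, 170.1, and 136.5 TPM. *Mkks* (BBS6), a chaperonin-like protein, was 23.8, 9.22, 19.3, and 11.9 TPM, and had the lowest value of all 44 genes in the tdTomato line at -0.65. *Mkks* was thus lower in the reporter-positive cells of both lines. The chaperonin-like *Bbs12* was 13.2, 6.60, 6.02, and 4.95 TPM, and *Bbs10* was 4.23, 3.25, 2.86, and 6.40 TPM. At these low levels the reporter-negative libraries already differ by about as much as the sorts do for *Bbs12*, at 13.2 and 6.02 TPM.

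Kinesin-2 genes had the lowest median of the groups in the GFP line, at -1.68 (-0.85 with the median-ratio scaling and 1.26 with the mature OSN scaling), and 0.06 in the tdTomato line. The BBSome median of -1.63 was close to it. BBSome genes were the lower ones with a pseudocount of 10 (-1.41 against -1.28) and without genes with overlapping exons (-1.64 against -1.49). All 4 were at least 2-fold lower in GFP-positive cells, compared with 45% of all genes. *Kif3a* and *Kif3b*, the motor subunits of the main IFT motor, were measured at 96.3, 30.9, 106.9, and 94.9 TPM for *Kif3a* and 97.5, 37.1, 97, and 126.4 TPM for *Kif3b*. *Kif3c*, an alternative partner of KIF3A that is known mostly from neurons, was 71.8, 10.1, 87.6, and 57.3 TPM. Its log2 fold change of -2.72 (-2.03 with a pseudocount of 10) was the lowest of the 44 genes in the GFP line, and -0.60 was the second lowest in the tdTomato line. *Kif17*, the homodimeric kinesin-2 linked to channel traffic into OSN cilia, was 20.8, 5.51, 12.6, and 15.8 TPM. Its log2 fold changes were -1.74 (-0.99 with a pseudocount of 10) and 0.30 (-0.38 against the GFP-negative library). Within the *Kif3* genes, *Kif3c* made up 27% of the summed TPM in GFP-negative and 30.1% in tdTomato-negative cells. It made up 12.9% in GFP-positive and 20.6% in tdTomato-positive cells, so its share was lower in the reporter-positive library of both lines. *Kif3b* made up 36.7% and 33.3% in the negative libraries and 47.5% and 45.4% in the GFP-positive and tdTomato-positive libraries. Shares within a library do not change with its scaling. The exons of *Kif3c* overlap those of 2 annotated genes on the other strand.

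Transition zone genes resembled IFT-B genes. All 9 were lower in GFP-positive cells, compared with 75.5% of all genes. Their median was -0.69 (0.17 with the median-ratio scaling and 2.31 with the mature OSN scaling), and 1 of them, *Tctn3*, was at least 2-fold lower, compared with 45% of all genes. In the tdTomato line all 9 were above 0, compared with 40% of all genes, and the median was 0.55. *Rpgrip1l*, which anchors the gate at the ciliary base, was 42.5, 25.95, 44.2, and 95.8 TPM. Its log2 fold change of 1.10 was the highest of the 44 genes in the tdTomato line. The tectonic genes encode membrane-linked proteins of the gate. *Tctn3* was 90.5, 30.4, 85.3, and 97.95 TPM, *Tctn2* was 40.6, 36.2, 53.9, and 92.3 TPM, and *Tctn1* was 38.9, 21.8, 50.6, and 74.7 TPM. The 3 tectonic genes therefore spread from -1.54 to -0.16 in the GFP line, the whole range of the group. *Cep290*, the scaffold between membrane and axoneme, was 36, 20.2, 50.4, and 73.9 TPM. *Cc2d2a*, a coiled-coil protein of the same module as the tectonics, was 39.7, 29.9, 46.7, and 85.5 TPM, and *Tmem67*, a receptor-like membrane protein, was 41.5, 34, 52.3, and 82.7 TPM. *Nphp4* and *Mks1* encode further gate proteins. *Nphp4* was 26.2, 12.7, 37, and 53.3 TPM, and *Mks1* was 42.7, 27.7, 45.9, and 50.6 TPM. *Mks1*, one of the genes with a full X-box, had the lowest tdTomato value of the group, at 0.14.

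The make-up of the summed TPM shows the same contrast without any scaling. IFT-B genes held 39.4% of the summed TPM of the 44 genes without GFP and 49.4% with it. In the tdTomato line they held 37.6% without and 43.9% with the reporter. BBSome genes held 20.3% and 12.7% in the GFP line and 19.4% and 14.6% in the tdTomato line. Kinesin-2 genes held 7.32% and 4.33%, and 8.02% and 5.58%, respectively. The IFT-B share was higher, and the BBSome and kinesin-2 shares were lower, in the reporter-positive library of both lines, and each of these differences was larger than that between the reporter-negative libraries. The IFT-A share was 17.7% and 17.2% in the GFP line and 17.4% and 19.5% in the tdTomato line, with no common direction. The transition zone share was 10.2% and 12.4%, and 12.3% and 13.4%, but the reporter-negative libraries themselves differed by a similar amount. As a ratio of geometric means, IFT-B over BBSome was 0.88 in GFP-negative and 0.933 in tdTomato-negative cells. The ratio was 1.86 in GFP-positive and 1.42 in tdTomato-positive cells.

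**Figure D3:**
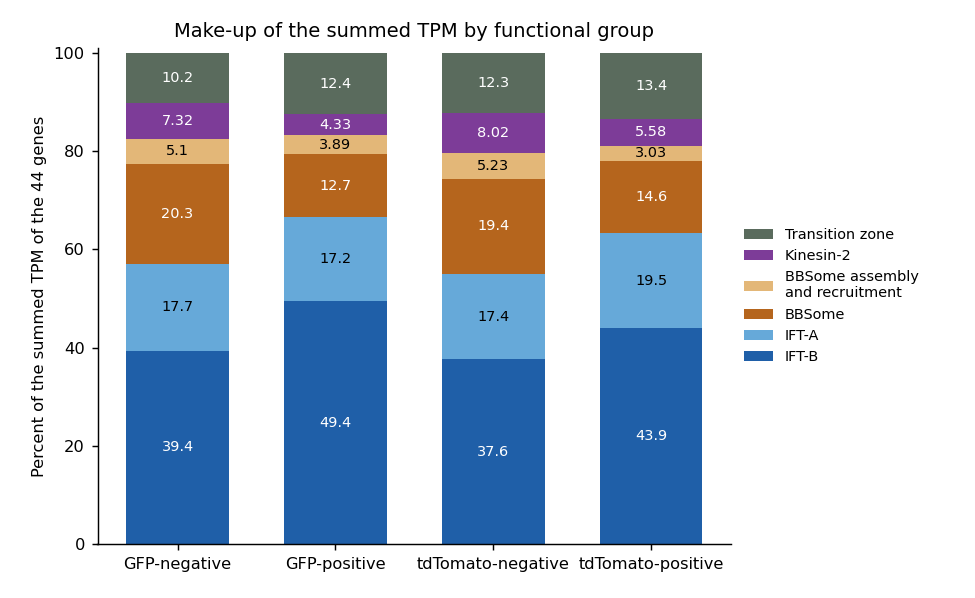
Percent of the summed TPM of the 44 genes held by each of the 6 functional groups, 1 bar for each library. The IFT-B part is larger in GFP-positive (49.4%) and tdTomato-positive (43.9%) cells than in the negative cells of the same line (39.4% and 37.6%), and the BBSome part is smaller (12.7% and 14.6% against 20.3% and 19.4%).

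The reporter-positive libraries differed from each other more than the negative ones did. In tdTomato-positive over GFP-positive cells, the log2 ratio of TPM + 1 had a median of 1.51 over the 44 genes against 0.69 for all genes. It was above 0 for 43 of the 44, compared with 75.2% of all genes, and at least 2-fold for 36 of the 44, compared with 34.9% of all genes. It ranged from -0.35 (*Bbs12*) to 2.40 (*Kif3c*). These libraries differ in enhancer, reporter, founder, and sort at once, which cannot be told apart.

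A list of 30 other ciliary trafficking genes, written with earlier results of these libraries known, gave medians near those of the 44 genes. The median log2 fold change was -0.87 in the GFP line (-0.01 with the median-ratio scaling and 2.12 with the mature OSN scaling) and 0.57 in the tdTomato line. At least 2-fold lower values were found for 12 of the 30 (40%) in the GFP line, compared with 45% of all genes. In the tdTomato line, 9 of the 30 (30%) were at least 2-fold higher and 1 was at least 2-fold lower, compared with 17.2% and 23.2% of all genes. *Dync2li1*, the light intermediate chain of the IFT dynein for return transport, was 78.8, 104, 71.3, and 298 TPM, and had the highest tdTomato value of this list at 2.05. *Rpgrip1* followed at 1.61, but at no more than 3.40 TPM, and *Hspb11* (IFT25) at 1.47. Against the GFP-negative library these values were 0.65 and 0.86. In the GFP line, *Tmem216* (0.77) and *Ttc30a2* (0.66, listed at 0 in GFP-negative cells) were among the higher genes. Against the tdTomato-negative library, the GFP value of *Ttc30a2* turned to -1.35. *Ttc30a2* has the near-identical copies *Ttc30a1* and *Ttc30b*, so reads may be split between them. It also had the lowest tdTomato value, at -1.93, which was 0.08 against the GFP-negative library. *Kifap3*, the subunit that joins KIF3A and KIF3B to cargo, was 135.6, 39.8, 141.8, and 105.6 TPM, with log2 fold changes of -1.74 and -0.42. *Bbip1*, the smallest BBSome subunit, was 68.3, 22.3, 78.6, and 41.6 TPM, with log2 fold changes of -1.57 and -0.90. *Ahi1*, a transition zone protein, had the lowest value of the GFP line, at -2.23, and -0.35 in the tdTomato line.

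Cell type markers moved between the sorts as well. All 12 mature OSN markers were present in each library. They were lower in the reporter-positive cells of both lines, with medians of -3.02 and -1.02, and their summed TPM was 27841 without and 3065 with GFP, and 28641 without and 12861 with tdTomato. The medians of all 6 groups of ciliary genes were thus above that of mature OSN markers in both lines. Among 14 markers of multiciliated cells, 11 had a log2 fold change above 0 in the GFP line and 13 in the tdTomato line, compared with 24.5% and 40% of all genes, with medians of 0.82 and 2.76. In the GFP line these markers ranged from -1.28 to 4.18. There, 7 of the 14 were at least 2-fold higher and 2 at least 2-fold lower, compared with 14.2% and 45% of all genes. The summed TPM of the 14 was 852.2 and 1332 in the GFP line and 874.4 and 4926 in the tdTomato line. *Spag6l* was listed at 0 in GFP-negative and tdTomato-positive cells. It counts among the 11 with only 0.40 TPM in GFP-positive cells, below the limit of 1 TPM. *Foxj1*, the master regulator of motile cilia, was 126, 302, 114, and 976 TPM. Immature OSN markers had medians of -1.99 and -1.11, globose basal cell markers -1.21 and -2.26 (with *Neurog1* listed at 0 in tdTomato-positive cells), and leukocyte markers -3.55 and -2.12 (-2.13 and -3.44 against the negative library of the other line), with *Lyz2* above 0 at 0.37 and 1.27. Horizontal basal cell markers had medians of 2.90 and -2.04 (1.80 and -0.98 against the negative library of the other line). Bowman gland markers had medians of 5.18 and 3.09, but in the tdTomato line they ranged from -6.76 (*Bpifb3*) to 3.36 (*Sox9*), their summed TPM was 2653 without and 2109 with the reporter, and the median was 0.05 against the GFP-negative library. Sustentacular cell markers had medians of 2.63 and 0.31, and in the tdTomato line they ranged from -1.67 (*Cyp1a2*) to 3.26 (*Sec14l3*), with a summed TPM of 1762 without and 9455 with the reporter. Against the tdTomato-negative library, the GFP medians of the Bowman gland and sustentacular markers were 3.89 and 1.84. In the GFP line, the summed TPM of the Bowman gland markers was 2031 without and 82672 with the reporter. That of the sustentacular markers was 1022 without and 9674 with it. Every group of ciliary genes had its median between those of the mature OSN and the multiciliated lists in both lines. The medians of all genes tested, -0.88 and -0.23, lay between them as well, so this position is not particular to the ciliary genes. The part of these cell types in the values of the ciliary genes was not tested.

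**Figure D4:**
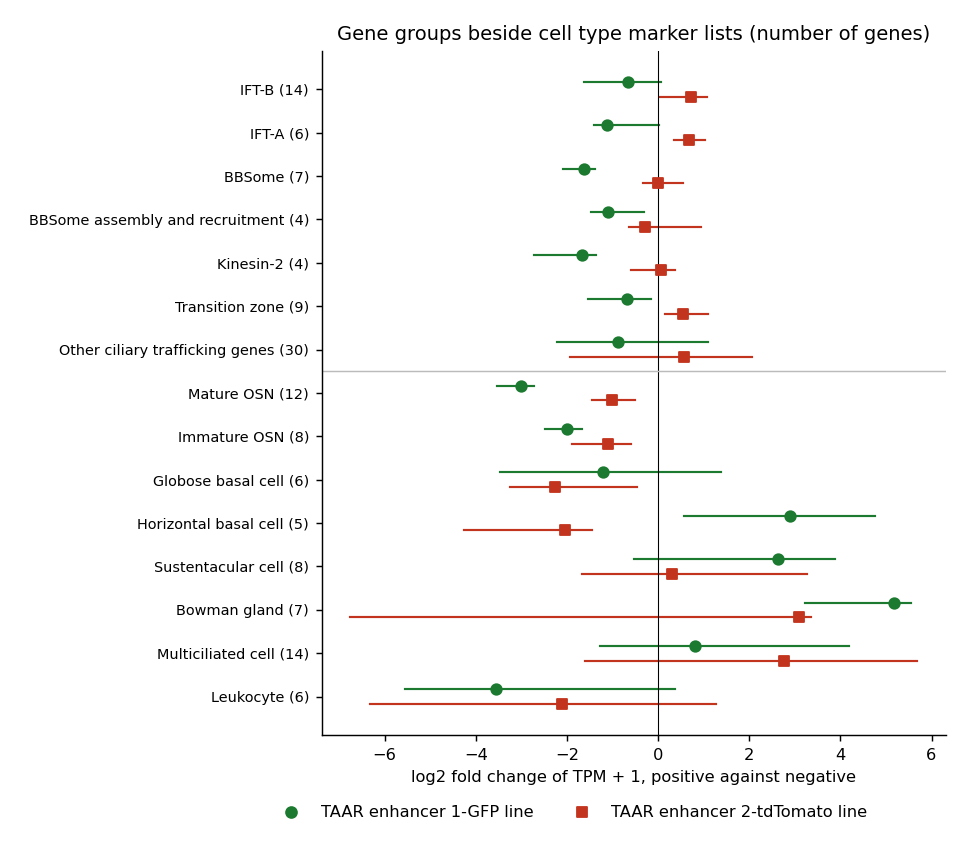
Median (point) and range (line) of log2 fold changes on the TPM + 1 scale for the 6 functional groups, the 30 other ciliary trafficking genes, and 8 cell type marker lists, in the GFP line (circles) and the tdTomato line (squares). Ciliary groups, for example BBSome with -1.63 and 0.00, lie between mature OSN markers (-3.02 and -1.02) and multiciliated cell markers (0.82 and 2.76). The medians of all genes tested (-0.88 and -0.23, not drawn) lie between them as well. Another scaling of the libraries shifts all lists of a line together.

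Median fold changes were similar with and without the promoter elements shown above. Genes with a half-site had median log2 fold changes of -0.99 in the GFP line and 0.51 in the tdTomato line, and those without had -0.90 and 0.51. The 4 genes with a full X-box had medians of -0.71 and 0.55. Those without, *Ift57* and *Tctn3* among them, had -1.0 and 0.47. The half-site was found for 6 of 12 IFT-B, 2 of 5 IFT-A, 3 of 7 BBSome, 3 of 4 kinesin-2, and 5 of 8 transition zone genes with a promoter, and for none of the 4 genes of BBSome assembly and recruitment. *Kif3c* and *Traf3ip1*, near opposite ends of the tdTomato range (-0.60 and 1.08), both have a half-site.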

How the data were processed

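The deposited values are TPM for 24421 genes named by symbol, with 1 library for each of 4 groups, taken from the labels. Submitters' processing notes list Trimmomatic 0.36, Salmon 1.4.0, and mm10 for the deposited TPM, without their roles. The paper's methods instead name alignment to mm10 and Cufflinks, and a different kit for RNA and libraries. The gene annotation is not given in the sources used here. Each library sums to 1000000 TPM, so depth is unknown and no intervals were calculated. Fold changes are log2((positive TPM + 1)/(negative TPM + 1)), which understates changes of low genes. Genes with at least 1 TPM in either library of a line formed the background. With 1 library per group, called means at least 2-fold. The calculation was tested on simulated data. The 44 genes and all lists were chosen with earlier results of these data known. Named genes are the members, with all 4 values at least for the 2 with the highest mean TPM of each group, the 5 highest and 5 lowest fold changes of each line, and genes that differed at least 1.5-fold in opposite directions in the lines. Also named are the 3 highest and 3 lowest other ciliary trafficking genes of each line, and at most 2 genes of a marker list. Some genes that this rule names are not reported here. Of the listed symbols, 2 were matched through RefSeq synonyms. Alternatives were pseudocounts of 0.1 and 10, a minimum of 5 TPM, and 3 scalings. Positions are from GENCODE M21. Python 3.11.15, pandas 2.3.3, and NumPy 2.4.6 were used. The knockout, ATAC-seq, and ChIP-seq experiments were not analysed here.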

Additional observations from a re-analysis of the deposited data

Results flagged for a closer look

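Values that were at least 1.5-fold lower in GFP-positive cells and at least 1.5-fold higher in tdTomato-positive cells were singled out, since the lines then differ in direction. With 1 library for each group, the difference was not tested. This held for 9 of the 44 genes (20.5%), compared with 5.14% of all 15033 genes that reached 1 TPM in some library of each line. The tdTomato log2 fold change minus the GFP log2 fold change was 2.06 for *Ift122* (0.67 and -1.4), 1.89 for *Ift22* (0.74 and -1.15), and 1.85 for *Ift88* (1.07 and -0.77). It was 1.79 for *Rpgrip1l* (1.10 and -0.69), 1.77 for *Traf3ip1* (1.08 and -0.70), and 1.72 for *Wdr19* (0.71 and -1.01). It was 1.65 for *Ift172* (0.68 and -0.97), 1.6 for *Ift43* (0.69 and -0.90), and 1.53 for *Ift81* (0.71 and -0.82). Among the group medians, the difference was 1.80 for IFT-A (0.68 and -1.12) and 1.39 for IFT-B (0.72 and -0.66). With the median-ratio scaling, none of the 9 genes met these limits in both lines. The GFP values were then between -0.53 (*Ift122*) and 0.18 (*Traf3ip1*), and the tdTomato values between 0.82 (*Ift122*) and 1.25 (*Rpgrip1l*). Against the reporter-negative library of the other line, the tdTomato values of *Ift22* and *Ift122* were 0.10 and 0.16, and the GFP values of *Ift22* and *Ift88* were -0.51 and -0.46, below the 1.5-fold limit.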

How the results depend on the processing

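A log2 value is called moved when it differed by more than 0.58 (1.5-fold) and a count when it differed by more than 1.5 times. No paired analysis was possible because no group holds more than 1 library. Medians and counts of the list kept within these limits with a pseudocount of 0.1 and a minimum of 5 TPM. With a pseudocount of 10, 2 genes were at least 2-fold higher in tdTomato-positive cells, compared with 8.47% of all genes. The scalings move all genes of a line alike by construction.

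In the GFP line, the median-ratio scaling gave a median of -0.12 for the 44 genes, -0.13 for the log2 ratio of summed TPM, and 3 genes at least 2-fold lower, compared with 21.7% of all genes. Rescaled without the 24 highest genes, 10 were, compared with 29.7% of all genes. With the median-ratio scaling, medians were 0.21 for IFT-B, -0.25 for IFT-A, -0.76 for BBSome, -0.28 for BBSome assembly and recruitment, -0.85 for kinesin-2, 0.17 for transition zone, and -0.01 for other ciliary trafficking genes. In the tdTomato line it gave 8 genes at least 2-fold higher, compared with 18.5% of all genes. Scaled to mature OSN markers, the GFP line had a median of 1.98, a log2 ratio of sums of 2.06, and 42 genes at least 2-fold higher and 0 lower, compared with 76.9% and 7.76% of all genes. Medians were 2.39 (IFT-B), 1.91 (IFT-A), 1.4 (BBSome), 1.78 (BBSome assembly and recruitment), 1.26 (kinesin-2), 2.31 (transition zone), and 2.12 (other ciliary trafficking genes). The tdTomato line had a median of 1.52, a log2 ratio of sums of 1.5, and 36 genes at least 2-fold higher, compared with 37.5% of all genes. Its medians were 1.72, 1.69, 1.01, 0.64, 1.02, 1.54, and 1.57 in the same order of groups.

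Genes at least 2-fold lower in GFP-positive cells were above 0 with that scaling, at 1.91 (*Ift22*), 1.43 (*Ift80*), 1.91 (*Cluap1*), 1.64 (*Ift122*), 1.74 (*Ift140*), 2.02 (*Wdr19*), 1.80 (*Wdr35*), 0.90 (*Bbs1*), 1.39 (*Bbs2*), 1.43 (*Bbs4*), 1.57 (*Bbs5*), 1.65 (*Bbs7*), 1.4 (*Bbs9*), 1.12 (*Ttc8*), 1.63 (*Mkks*), 1.56 (*Arl6*), 1.42 (*Kif3a*), 1.67 (*Kif3b*), 0.24 (*Kif3c*), 1.09 (*Kif17*), 1.48 (*Tctn3*), 0.79 (*Ahi1*), 1.30 (*Kifap3*), and 1.44 (*Bbip1*). The marker medians were 0.04 for mature OSN, 1.06 for immature OSN, and 1.48 for globose basal cells.

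Other alternatives were chosen after seeing the data. Against the reporter-negative library of the other line, the GFP median of BBSome assembly and recruitment was -0.44. With it, 1 gene was at least 2-fold lower in tdTomato-positive cells (24.8% of all genes were). *Ttc30a2* then had -1.35 in the GFP line and 0.08 in the tdTomato line. At a limit of 1.5-fold, 33 genes were lower in the GFP line, and 18 higher and 2 lower in the tdTomato line. Without the 12 genes with overlapping exons, 3 of 32 genes were at least 2-fold higher in tdTomato-positive cells, compared with 17.2% of all genes, and BBSome assembly and recruitment, then *Bbs10* alone, had -0.30 and 0.94. For changes other than those of the scalings and limits, the cause was not tested.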
